A study of Rattus norvegicus with 4 samples.

Results

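The comparison between 24 h and 8 h after retinol asks what differed in the vitamin A-deficient rat testis during the later part of the first day of vitamin replacement. It rests on 2 of the 4 samples of the series, 1 array a side, chosen by their labels, and on 4736 genes. Both arrays hold total testis RNA of rats put on a diet lacking vitamin A at 20 days of age, kept on it for 9 weeks and then given retinol. They differ, as far as the labels say, only in the time since retinol, 8 h or 24 h, so both carry the deficiency and the treatment. The 4 h array is cited for single genes as the earlier point of the same course, and the untreated deficient array is not used. The sources used here do not give the strain, the retinol dose and route, the number of animals behind each RNA sample or the hour of day at collection.

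Retinol is the transport and storage alcohol of vitamin A. Cells oxidise it to retinal and then to retinoic acid, which acts through nuclear receptors (RARs paired with RXRs) bound to DNA. In the testis, retinoic acid starts the differentiation of spermatogonia, and the adult deficient testis is known to be left with early germ cells, Sertoli cells and interstitial cells, among them the Leydig cells that make testosterone.

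Several genes that deliver cholesterol and turn it into androgen were lower at 24 h than at 8 h. Cyp11a1, the side-chain cleavage enzyme that makes the first steroid from cholesterol, had a ratio of 1.04 at 8 h and 0.313 at 24 h. Its log2 difference was -1.73, a 3.32-fold lower value. Over the same interval Pla2g2a, a secreted phospholipase of inflammation, went from a ratio of 3.94 to 12.2, and the neutrophil protein gene S100a8 from 1.78 to 4.03. The microtubule regulator gene Dpysl4 went from 0.343 to 0.0703, the largest difference among these genes. A ratio is the value deposited per probe set (the group of probes that reads 1 transcript) against a reference that the sources do not name. A difference is log2 of the 24 h ratio minus log2 of the 8 h ratio, averaged over a gene's probe sets.

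Most genes differed little. The quartiles of the 4736 genes were -0.14 and 0.14, the median was 0.00, and 93.8% of genes were within 1.5-fold. With 1 array a side there is no test between the times, and genes were counted at or past 2-fold. By that rule 24 genes were higher at 24 h, which is 0.507% of all genes, and 31 were lower, which is 0.655%. Scaling the arrays on bacterial spike-in RNAs would turn this split to 53 higher and 18 lower. By sign alone, 49.9% of genes were higher and 49.8% lower. At the edge of the rule, Syt8 (0.738 to 1.47) and Lmnb1 (1.85 to 0.922) were just inside, and Slc10a1 (0.531 to 1.06) and Adam4 (1.18 to 0.596) just outside.

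**Figure D1:**
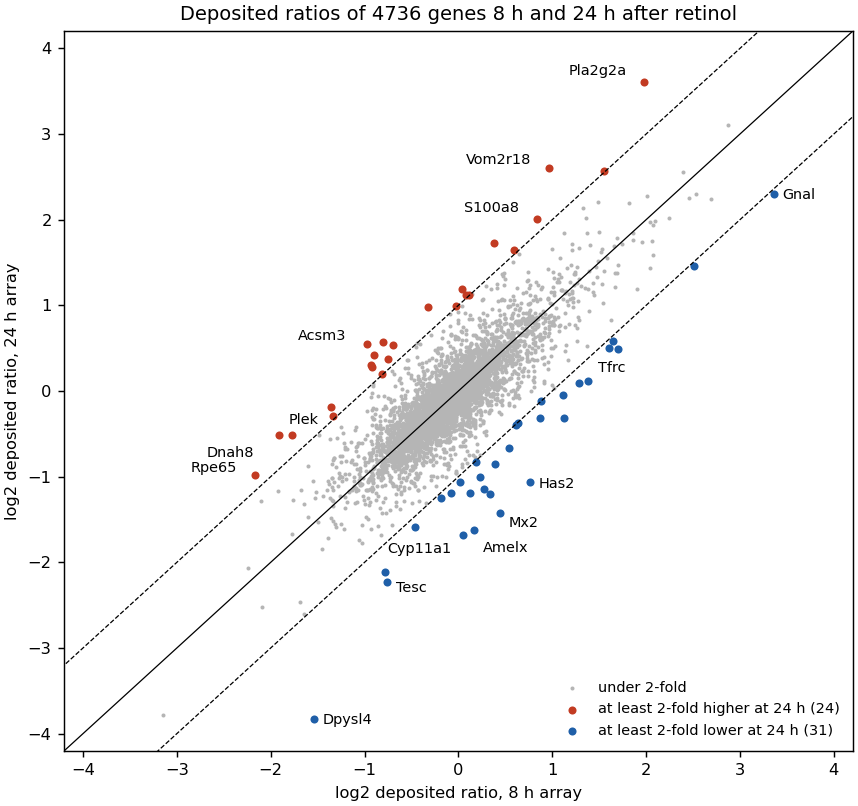
Each point is 1 gene, with the log2 deposited ratio of the 8 h array on the x axis and of the 24 h array on the y axis (1 array each, no replicates); the solid line marks equal values and the dashed lines a 2-fold difference. The 24 red genes were at least 2-fold higher and the 31 blue genes at least 2-fold lower at 24 h, and Pla2g2a and Dpysl4 lie at the ends of the plot.

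The error of a difference was read from genes that the array measures with probe sets from different database sequences. In 1083 such genes the noise of 1 probe set was 0.31, taken as the SD of the difference within a pair divided by the square root of 2. The median gap within a pair was 0.19, and 80.7% of pairs differed by less than 0.5. Of the 44 pairs with at least 1 sequence past 2-fold, 29 had both on the same side of 0, and in none were both past 2-fold. This noise leaves out the spread between animals, and 21 of the 24 higher and 25 of the 31 lower genes were read by 1 probe set.

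**Figure D2:**
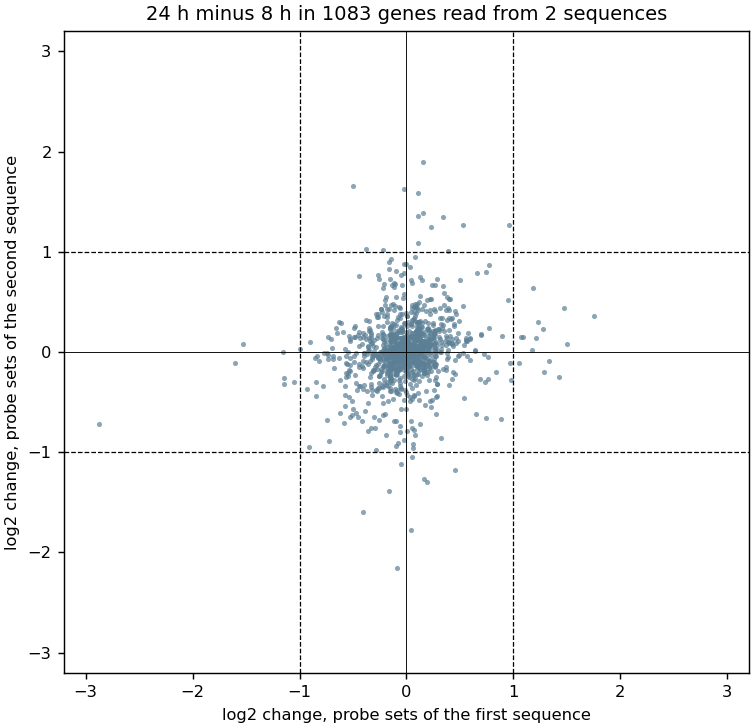
Each of 1083 points is a gene read from 2 database sequences, with the log2 difference (24 h minus 8 h) of the first sequence on the x axis and of the second on the y axis; dashed lines mark 2-fold. Points past 2-fold on both axes in the same direction would lie in the upper right or lower left corner, and none did.

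Controls on the arrays differed between these times by up to about the noise of 1 probe set. Beta-actin read 0.24 and 0.20 at its 5' and 3' ends, GAPDH -0.04 and -0.06, and hexokinase 0.03 and 0.33. The 5' difference minus the 3' difference was thus 0.03, 0.02 and -0.30. All 9 hybridisation spike-ins were lower at 24 h (-0.26 to -0.06, median -0.17), and scaling on them would add 0.16 to every gene. A difference smaller than 0.16 and below 0 would therefore change sign. Deposited ratios carry no signal level or detection call, so whether a gene was detected at all in this tissue, and the tissue's identity from marker levels, were not checked here.

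In the steroid pathway, the genes are taken in the order in which cholesterol moves, with groupings written after the values were seen. Scarb1, the receptor that takes up cholesterol from high-density lipoprotein, had mean ratios of 1.15 at 4 h, 1.10 at 8 h and 0.776 at 24 h. Its 3 probe sets differed by -0.79 to -0.19 between 8 h and 24 h. Star, the carrier of cholesterol into the mitochondrion, was at 1.43, 1.05 and 0.639, and its probe sets from different sequences read -0.74 and -0.68. Both Star probe sets were thus lower at 24 h by nearly the same amount. Tspo, a protein of the outer mitochondrial membrane, and its ligand gene Dbi were at 0.10 and 0.17 in log2 difference, on the other side of 0.

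Of the 7 measured genes of steroid synthesis, 6 were lower at 24 h, by -1.73 to -0.01, against 49.8% of all genes. Among the 6, Por (-0.01) and Cyb5a (-0.06) were close to 0. Against 0.655% of all genes 2-fold lower, only Cyp11a1 passed 2-fold here. Its ratio, read by 1 probe set, had been level before, at 1.09 at 4 h and 1.04 at 8 h. Fdx1, the ferredoxin that passes electrons to Cyp11a1, was at 1.08 at 4 h, 0.751 at 8 h and 0.515 at 24 h (difference -0.54, probe sets -0.76 and -0.33). Cyp17a1, which converts pregnenolone and progesterone toward androgens, was at 0.615, 0.526 and 0.326 at these times (-0.69). Each of the 3 was at its lowest at 24 h. Hsd17b3, the enzyme of the last step to testosterone, went from 1.23 to 0.926 (-0.41).

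The partners of these enzymes differed less. Por, the reductase that feeds microsomal P450 enzymes, was at a difference of -0.01, and the cytochrome b5 gene Cyb5a at -0.06. The dehydrogenase gene Hsd3b5 was at 0.07. Whether this member of its gene family is the one that Leydig cells use was not tested. Aromatase (Cyp19a1), which turns androgens into estrogens, was at 0.15, and the hydroxysteroid dehydrogenase gene Akr1c14 at 0.20. Under spike-in scaling Por and Cyb5a turn to 0.15 and 0.10, while Cyp11a1, Star, Cyp17a1, Fdx1, Scarb1 and Hsd17b3 stay lower, at -1.57, -0.55, -0.53, -0.38, -0.34 and -0.25.

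The receptors and transcription factors of the pathway did not share one direction. Lhcgr, the receptor for luteinising hormone, had a mean difference of -0.17 over 5 probe sets (-0.48 to 0.09). Nr5a1 (SF-1), which activates steroidogenic genes, was at 1.31 at 4 h, 1.81 at 8 h and 2.36 at 24 h. Nr0b1 (DAX1), which represses SF-1, was at 3.50, 5.77 and 4.91. Nr5a1 was thus at its highest at 24 h and Nr0b1 at 8 h, with differences of 0.38 and -0.23 between these arrays, about the size of 1 probe set's noise. The orphan receptor gene Nr4a1, which luteinising hormone induces, was at -0.51 from probe sets at -0.84 and -0.17, and Gata4 at 0.05.

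Over the whole Leydig cell list of 25 measured genes the median difference was -0.02, with 14 genes lower (56%, against 49.8% of all genes) and 11 higher. In it 1 gene was 2-fold lower, against 0.655% of all genes. The members outside the steroid route lay close to 0, with Pdgfra at 0.12, Hsd17b7 at 0.08, Ephx1 at 0.07, Hsd11b1 at 0.04, Acp5 at -0.02 and Vcam1 at -0.13. In total testis RNA, fewer cells of a type and less RNA per cell cannot be told apart.

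**Figure D3:**
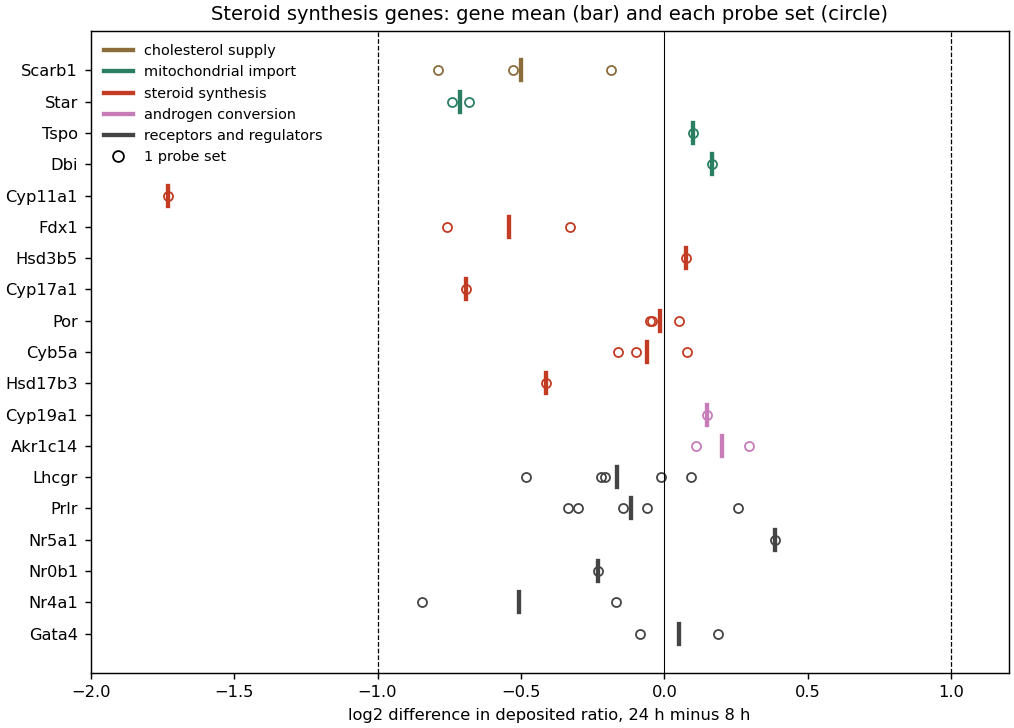
Log2 difference in deposited ratio (x axis, 24 h minus 8 h) for 19 genes of cholesterol supply, steroid synthesis and its regulation, with circles for single probe sets, bars for the gene mean, colours for roles and dashed lines at 2-fold. Cyp11a1 lies at -1.73, both Star probe sets and both Fdx1 probe sets lie below 0, and Nr5a1 lies at 0.38.

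The promoters of Cyp11a1 and Fdx1 are shown because these partners in the first step of steroid synthesis were both lower at 24 h, and both hold the half-site AGGTCA of nuclear receptors such as SF-1 and the retinoic acid receptors. Each run gives the 250 bases before the annotated gene start (RefSeq, GRCr8), 5′ to 3′ on the strand of the gene, with every match to AGGTCA on either strand in capitals. The windows are chr8:67318415-67318664 (plus strand) for Cyp11a1 and chr8:61183646-61183895 (minus strand) for Fdx1.
Cyp11a1: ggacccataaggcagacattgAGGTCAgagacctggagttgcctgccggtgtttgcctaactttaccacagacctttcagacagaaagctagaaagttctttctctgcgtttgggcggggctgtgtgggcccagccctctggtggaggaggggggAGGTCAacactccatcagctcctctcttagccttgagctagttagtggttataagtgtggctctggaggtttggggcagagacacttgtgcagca
Fdx1: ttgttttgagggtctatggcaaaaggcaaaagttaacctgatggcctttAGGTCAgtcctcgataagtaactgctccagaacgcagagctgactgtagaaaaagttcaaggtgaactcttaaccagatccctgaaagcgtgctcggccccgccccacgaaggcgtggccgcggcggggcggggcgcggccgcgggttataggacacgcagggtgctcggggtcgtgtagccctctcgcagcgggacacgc

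The 2 matches of Cyp11a1 begin 229 and 95 bases before the start, and the match of Fdx1 begins 201 bases before it. Of 27457 gene promoters of this length, 13.7% hold the motif. Among the 25 measured genes of the Leydig list, 17 have a promoter in the table and 5 of these hold it. They are Cyp11a1, Fdx1, Lhcgr, Por and Nr0b1, whose differences ran from -1.73 to -0.01, that of Por turning to 0.15 under spike-in scaling. Those of Lhcgr, Por and Nr0b1 were within the noise of 1 probe set. The 12 without it ran from -0.51 (Nr4a1) to 0.38 (Nr5a1), 6 lower and 6 higher. Genes with no promoter here were Star (-0.71), Cyp17a1 (-0.69) and Scarb1 (-0.50), all lower, and Cyp19a1, Gata4, Hsd11b1, Hsd3b5 and Tspo, all higher. A link between motif and direction was not tested. A match to these letters is a description of the sequence and says nothing of binding.

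Inflammatory genes supplied several of the higher values at 24 h. Pla2g2a was at 2.05 at 4 h, 3.94 at 8 h and 12.2 at 24 h, each array above the one before, with a difference of 1.63 between the last 2 (3.09-fold). S100a8 was at 0.986, 1.78 and 4.03 (difference 1.18), and its partner S100a9, with which it forms calprotectin, at 1.31, 1.23 and 2.34 (0.93). The complement gene C3 went from 0.755 to 1.46, with probe sets at 0.43 and 1.47. The chemokine genes Cxcl2 and Ccl3 were at 0.69 and 0.66, each from 1 probe set. These genes were named for the size of their differences, so their lying past the noise of 1 probe set (0.31) follows from that choice. The SD of the difference over all genes was 0.30.

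The list of 43 acute phase and inflammation genes had 28 higher and 15 lower members (65.1% higher, against 49.9% of all genes). In it 2 genes were 2-fold higher, against 0.507% of all genes. The median was 0.09, against the all-gene median of 0.00. Over the list's 21 members with 2 or more probe sets the median was 0.01. Among its lower members, the fibrinogen chain gene Fgg was at -0.67 (probe sets -1.16 and -0.18), while the chains Fga and Fgb were at 0.58 and 0.84. Among 10 neutrophil genes, Cxcr2, the chemokine receptor of neutrophils, was lower (1.18 to 0.498, difference -1.24) and the defensin gene Defa5 was at -0.62. Neutrophil genes thus lay on both sides. The macrophage list had a median of 0.05 over 18 genes, with Ptprc (CD45) at 0.26 over probe sets at -0.10 to 0.88 and Csf1r at -0.10. That median would be -0.09 without suffixed probe sets (names that mark non-standard probe designs). The part of leukocytes in the values of Pla2g2a, S100a8 and S100a9 was not tested.

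Lymphoid genes leaned lower, with 14 of 20 lower at 24 h (70%, against 49.8% of all genes). Their median was -0.16, which would be nearly 0 under spike-in scaling. Gzmn, a granzyme gene, was at 4.33 at 4 h, 2.19 at 8 h and 0.803 at 24 h, a difference of -1.44 over the last interval. Whether lymphoid or other testis cells gave the Gzmn signal was not tested. The T cell genes Cd8a, Il2ra and Gzmk were at -0.68, -0.64 and -0.57, and the natural killer receptor gene Klra22 at -0.40. Each was read by 1 probe set. On the other side, Cd2, an adhesion molecule of T cells, was at 0.34 and the granzyme gene Gzmb at 0.22, and over the 4 members with 2 or more probe sets the median was 0.05. The interferon-induced gene Mx2 was 3.64-fold lower (1.36 to 0.374, difference -1.86), the second largest negative difference. Its relative Mx1 was at -0.37, and the other 25 of the 27 interferon and antigen presentation genes lay between -0.52 (the class II gene RT1-Db1) and 0.41 (the class I gene RT1-A3).

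The other genes of the negative set had varied known roles. Has2, the synthase of hyaluronan in the extracellular matrix, was at 2.44 at 4 h, 1.69 at 8 h and 0.477 at 24 h, a difference of -1.83. Amelx, known from tooth enamel, was at -1.80, but its probe sets disagreed in size (-2.88 and -0.72). Adarb1, an RNA editing enzyme gene, was at -1.53, the calcium binding protein gene Tesc at -1.47, and the histone gene H3c1 at -1.42. They were followed by the synaptotagmin gene Syt12 (-1.33), the channel genes Kcnc1 (-1.31) and Scn10a (-1.24), the zymogen granule gene Zg16 (-1.27) and the sialyltransferase gene St3gal3 (-1.22). Dpysl4 was at 1.03 at 4 h, so its ratio was lower on each later array.

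The 31 lower genes came from different places on the ratio scale. At 8 h 25 of them had a ratio above 1, and at 24 h 24 had one below 1. Choosing genes by a lower value at 24 h itself favours high 8 h and low 24 h ratios. In 18 of the 31 the 24 h ratio was farther from 1 than the 8 h ratio, as it was in 54.0% of all genes. Cyp11a1 moved from near 1 to well below it. The transferrin receptor gene Tfrc instead moved back toward 1, from 3.05 to 1.41 (1.80 at 4 h), as did Gnal, a G protein subunit gene, from 10.2 to 4.93, and the DNA ligase gene Lig3 from 5.70 to 2.75.

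**Figure D4:**
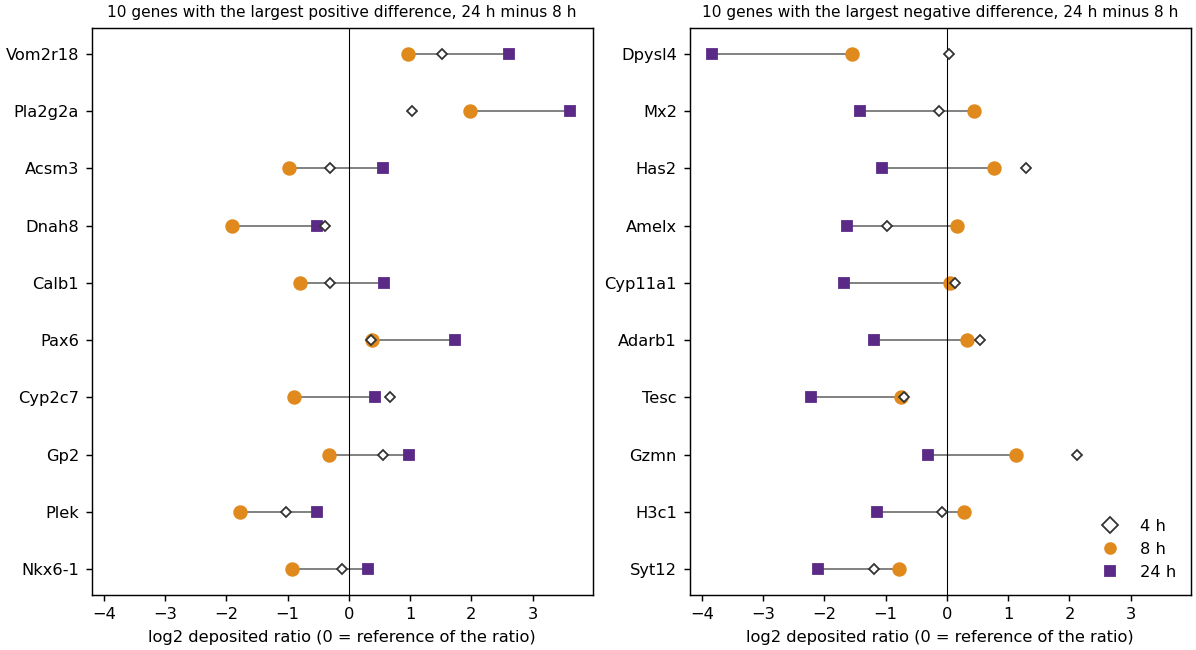
Log2 deposited ratio (x axis) at 4 h (diamonds), 8 h (circles) and 24 h (squares), 1 array each, for the 10 genes with the largest positive (left) and the 10 with the largest negative (right) difference between 24 h and 8 h. Pla2g2a was higher on each later array (2.05, 3.94 and 12.2 as linear ratios), while Cyp11a1 was level at 4 h and 8 h (1.09 and 1.04) and lower at 24 h (0.313).

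The largest positive difference was that of the vomeronasal receptor gene Vom2r18, at 2.86 at 4 h, 1.95 at 8 h and 6.10 at 24 h (1.65). After Pla2g2a came the acyl-CoA synthetase gene Acsm3 (0.508 to 1.47, difference 1.53), the axonemal dynein gene Dnah8 (0.265 to 0.698, 1.40), and the calcium buffer gene Calb1 (0.573 to 1.49, 1.37). Most of these began below 1: of the 24 genes, 15 had a ratio under 1 at 8 h, and 19 had one above 1 at 24 h. Choosing genes by this difference itself favours low 8 h and high 24 h ratios. The median ratio over all probe sets was 0.923 at 8 h and 0.922 at 24 h. The developmental transcription factor genes Pax6 and Nkx6-1 were at 1.34 and 1.24, the purinergic receptor gene P2ry1 at 1.23, and the platelet and leukocyte protein gene Plek at 1.25. The remaining members were Cyp2c7 (1.32), the zymogen granule gene Gp2 (1.30), the muscle gene Neb (1.19), Rpe65 (1.18) and Baat (1.17).

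Several of the higher genes are best known from the liver, among them Acsm3, Cyp2c7, the bile acid conjugating enzyme gene Baat, the protease gene Hpn (1.15), the glycogen synthase gene Gys2 (1.04) and the urea cycle gene Cps1 (1.01). A hepatocyte list was written after these values were seen, so its counts are a description. Of its 70 measured genes 7 were 2-fold higher and 3 (Bhmt, Cyp7a1 and Cyp2c22) 2-fold lower, against 0.507% and 0.655% of all genes. In all 40 were higher (57.1%, against 49.9% of all genes) and 30 lower, with a median of 0.06. Albumin (Alb), the most abundant hepatocyte product, was at 0.04, and Apoa1 at 0.14. The 3 probe sets of Cps1 read from -0.02 to 1.62, and those of Cyp7a1 read -2.16 and -0.09.

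Most genes whose probe sets agreed carried differences under 2-fold. In 9 genes with 2 or more probe sets all were at least 0.5 higher, and in 13 all were at least 0.5 lower. By the mean over probe sets, 1 of the 9 and 4 of the 13 passed 2-fold. Uchl1, a ubiquitin hydrolase known in spermatogonia and neurons, was at 1.07 at 4 h, 1.05 at 8 h and 1.88 at 24 h, and its 3 probe sets read 0.77 to 0.89. These come from 2 database sequences. The protease gene Capn8 was at 1.11 (0.96 and 1.27), the synaptic vesicle gene Sv2b at 0.91, the potassium channel gene Kcnd2 at 0.90, and Nog, the antagonist of bone morphogenetic proteins, at 0.73 (0.66 and 0.79). Slc40a1 (ferroportin, which exports iron) was at 0.72, Cyp2e1 at 0.68 and the gonadotropin-releasing hormone receptor gene Gnrhr at 0.64.

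On the lower side, Amelx had the largest difference (-1.80, from probe sets at -2.88 and -0.72). Acap1 was at -1.20 and the Y-linked spermatogonial gene Tspy1 at -1.16, with probe sets from -1.72 to -0.60. The neurofilament gene Nefh read -0.94 and -0.91, and the stearoyl-CoA desaturase gene Scd -0.89 and -0.72. Neurod1 was at -1.02, Pip at -0.80 and Star at -0.71. In Acap1, Tspy1, Neurod1, Pip and Slc40a1 both probe sets derive from 1 sequence, so their agreement is not that of separate measurements.

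Genes of retinoid handling differed little at this stage of replacement. Of 20 measured, 11 were higher and 9 lower, with a median of 0.03 and 1 gene 2-fold higher, Rpe65, the retinoid isomerase of the eye (0.325 at 4 h, 0.223 at 8 h and 0.506 at 24 h). Rdh10, which oxidises retinol to retinal, was at 1.53, 2.04 and 1.44, so its 8 h ratio was the highest of these and the difference to 24 h was -0.50. The alcohol dehydrogenase gene Adh4 was at 0.47 and Adh7 at -0.40. Aldh1a1 and Aldh1a2, whose products make retinoic acid from retinal, were at -0.04 and -0.11, and Cyp26b1, which breaks it down, at -0.07. These last 3 were well within the noise of 1 probe set.

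Of the binding proteins, Crabp1 and Crabp2, which hold retinoic acid in the cell, were at 0.43 and -0.43. The plasma carrier Ttr was at 0.35 (probe sets of the same sequence, 0.32 and 0.39), Rbp4 at 0.27 and Rbp2 at 0.12. Fabp5, which also carries retinoic acid, was at -0.16. The RAR and RXR genes lay between -0.24 (Rxrg) and 0.21 (Rxrb), with Rxra at -0.21, Rara at 0.10 and Rarb at 0.06. Ppard averaged -0.60, its 3 probe sets running from -1.33 to -0.18, and Nr2f2 was at 0.42. None of the 16 receptor and target genes passed 2-fold (8 higher, 8 lower, median -0.06).

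Signals between Sertoli cells and spermatogonia lay on both sides of 0. Kitlg, the Sertoli cell ligand for the Kit receptor of differentiating spermatogonia, was at 1.23 at 4 h, 1.37 at 8 h and 2.09 at 24 h, with both probe sets at 0.61. Kit itself was at 1.08, 1.28 and 1.58, with probe sets at 0.13 and 0.48. For both genes the 2 probe sets come from 1 sequence. Gdnf, which maintains spermatogonial stem cells, was at 1.82, 1.89 and 1.06, a difference of -0.82, while its receptor genes Gfra1 and Ret were at -0.10 and -0.08. Bmp4 was at 0.76 and the receptor gene Bmpr1a at -0.78. The 17 genes of this group had a median of 0.03 and none passed 2-fold.

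Among other Sertoli cell genes, the keratin gene Krt18 was at -0.65 (probe sets -0.93 and -0.37), the activin subunit gene Inhba at -0.61, and the chemokine-like gene Cmtm2a at -0.49. The 31 Sertoli genes had a median of -0.03, with 17 lower, 13 higher and 1 at 0. Peritubular myoid genes were at a median of 0.10 over 14 genes, 10 higher (71.4%, against 49.9% of all genes) and 4 lower. Desmin (Des) was at 0.55, smooth muscle myosin (Myh11) at 0.29 (probe sets -0.14 to 0.93) and the collagen-binding integrin gene Itga1 at -0.48. The peritubular median turned to -0.10 over the 9 genes left without suffixed probe sets. Endothelial genes had a median of -0.02, with Cav1 at 0.50 and Vegfa at -0.34.

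Genes of germ cells went both ways. The meiotic gene Sycp1 was at 1.32 at 4 h, 0.990 at 8 h and 1.55 at 24 h (0.65), Sycp2 at 0.37 and Sycp3 at -0.05. Over 6 genes that mark differentiating spermatogonia and the entry into meiosis, the median was 0.26, the highest of the 37 lists. Of these, 4 were higher and 2, Ccnd2 (-0.25) and Sycp3, lower. Over the 2 members with 2 or more probe sets the median was 0.03. Sycp1, Sycp2 and Sycp3 also belong to the spermatocyte list. Of 17 spermatocyte genes 12 were lower (70.6%, against 49.8% of all genes), with a median of -0.11, or 0.06 under spike-in scaling. The sperm surface genes Adam2 and Adam1a were at -0.55 and -0.46 and Adam3a at 0.83. The spermatid list stood at 0.00 over 17 genes, with the sperm tail genes Odf2 and Odf1 at -0.74 and -0.63, Tnp2, a transition protein of sperm chromatin, at -0.49, Fabp9 at 0.61 and Dnah8 at 1.40. No spermatid gene other than Dnah8 passed 2-fold.

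Iron genes included Tfrc, the receptor that imports iron, at -1.11 and the exporter Slc40a1 at 0.72, with the haem carrier Hpx at 0.61 and haem oxygenase 1 (Hmox1) at 0.46. The haem synthesis gene Alas1 was at -0.43 (2.32 at 4 h, 1.28 at 8 h and 0.957 at 24 h). The genes for iron entry and exit thus lay on opposite sides of 0, although the 15 genes together had a median of -0.06. In lipid synthesis, Scd (-0.81), the carboxylase gene Acacb (-0.77) and Mvd of the mevalonate pathway (-0.70) were lower, and the 24 genes had a median of -0.03. Fatty acid oxidation was at 0.00 over 33 genes.

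Chaperone and respiratory chain genes were lower by small amounts in most members. Of 30 chaperone genes 22 were lower (73.3%, against 49.8% of all genes), with a median of -0.13. The mitochondrial chaperonin partners Hspd1 and Hspe1 were at -0.42 each, from probe sets at -0.46 to -0.38, those of Hspe1 both from the same sequence. Hsph1 was at -0.39 and Hspa5 of the endoplasmic reticulum at -0.35 (3 probe sets, -0.53 to -0.22). Of 53 respiratory chain genes 37 were lower (median -0.07), with Ndufc1 at -0.50 and Cox8b at -0.49. Ribosomal protein genes were at 0.02 over 44 genes and proteasome genes at -0.02 over 27. Under spike-in scaling the chaperone and respiratory chain medians would turn to 0.03 and 0.09, still under the 0.16 by which the median of all genes would move.

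**Figure D5:**
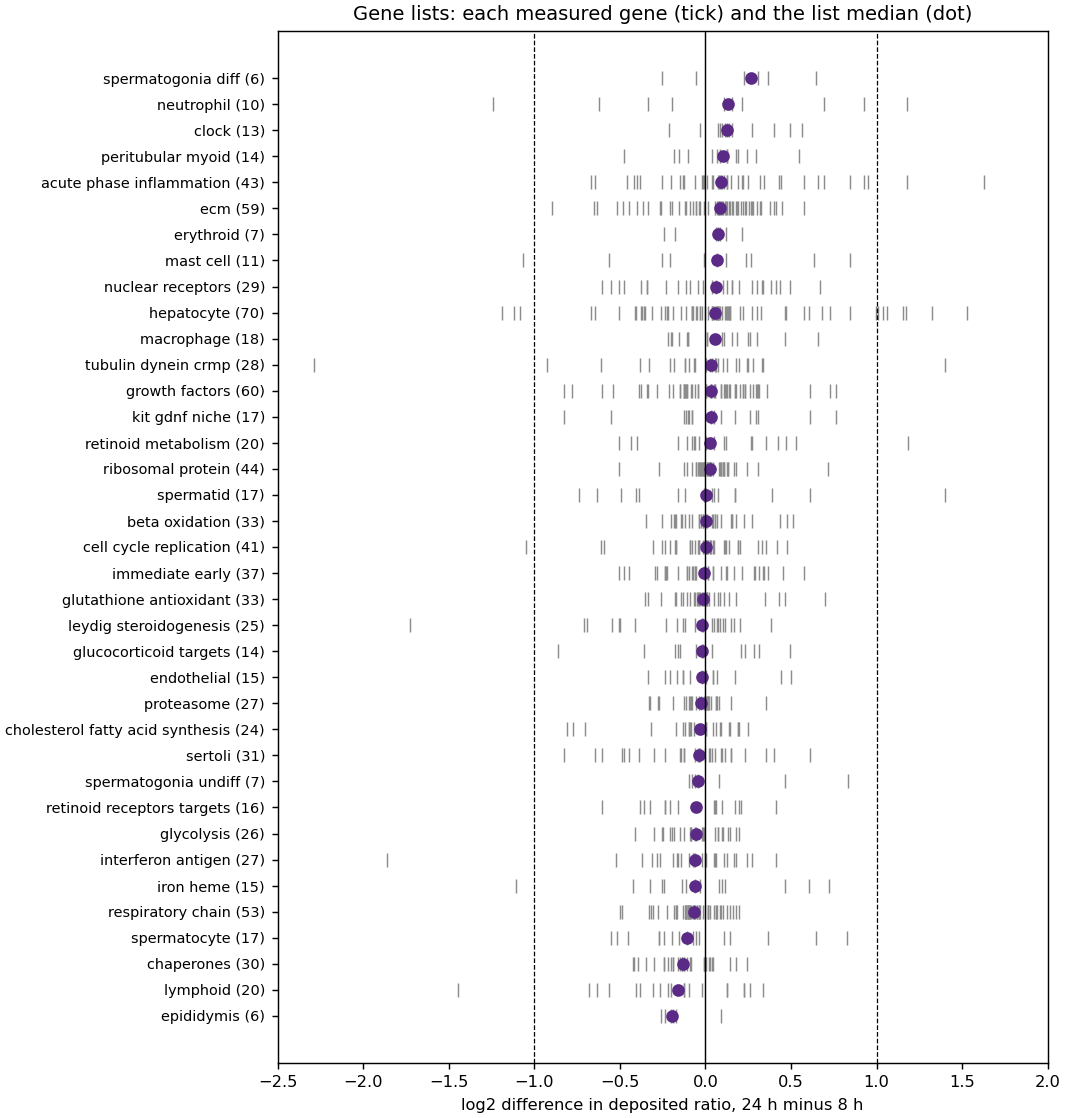
Log2 difference in deposited ratio (x axis, 24 h minus 8 h) for the measured genes (ticks) and the median (dots) of 37 gene lists, with the number of genes in parentheses, the all-gene median as a solid line and 2-fold as dashed lines. List medians lie between -0.20 (epididymis, 6 genes) and 0.26 (differentiating spermatogonia, 6 genes).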

How the data were processed

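The authors deposited linear ratios per probe set of an Affymetrix rat array, hybridised per the labels with cRNA from 10 micrograms of total RNA. The submitters' processing notes name GCOS and MAS5 with no version, and the sources used here do not give the reference, pooling or scaling of the ratios. Of 8799 probe sets, 59 were controls, 7006 had 1 gene symbol and were used, and 308 with several symbols and 1426 with none were left out of genes. Symbols were updated through Entrez IDs (6985 found in RefSeq, GRCr8). Differences were log2 of the 24 h ratio minus log2 of the 8 h ratio, averaged per gene (Python 3.11.15, pandas 2.3.3). With 1 array a side no p-value exists. The calculation was tested on simulated data.

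Members and lists were chosen with earlier results of these data known. Named genes were the 15 largest differences on each side, the 8 largest on each side among genes whose probe sets all differed by at least 0.5, all members of 5 lists (retinoid metabolism, retinoid receptors and targets, Leydig, clock, and Kit and Gdnf signals), and up to 5 members of each other list. Other genes were chosen after their values were seen: those at the 2-fold edge, Alb, Apoa1, Cd2, Cps1, Cyp2c22, Cyp7a1, Fga, Fgg, Gnal, Gys2, Gzmb and Sycp3. The hepatocyte list was also added then. Alternatives changed scaling, the summary over probe sets, filters and the threshold.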

Additional observations from a re-analysis of the deposited data

How the results depend on the processing

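Centring each array on its median, quantile normalization, the median over probe sets, and averaging probe sets of 1 sequence first kept both counts within 1.5 times of 24 higher and 31 lower genes. Scaling on spike-ins gave 53 higher and 18 lower, and reading each gene from its probe set of highest mean ratio gave 41 higher. Restriction to the 1565 genes with 2 or more probe sets gave 3 and 6. A threshold of 1.5-fold gave 146 and 149 genes and one of 3-fold gave 2 and 5. Without suffixed probe sets the counts were both 31, and 17 and 23 of these genes were also among the original ones. Of 39 genes past 2-fold and named by rule, 10 have no value without suffixed probe sets (Acsm3, Amelx, Calb1, Cxcr2, Cyp11a1, Cyp2c7, Kcnc1, Mcpt9, Neb and Pax6). None of the 39 changed sign under a setting that gave it a value. These genes were chosen for being past 2-fold, and spike-in scaling moves a gene by only 0.16. Their kept sign therefore follows largely from that choice. Of 259 gene differences, 241 kept their sign under spike-in scaling and 250 when the probe set of highest mean ratio stood for a gene. Of 37 list medians, 21 kept their sign under spike-in scaling and 29 without suffixed probe sets. No paired analysis was possible because each time has 1 array. Signal over background is not among the values used here, so a dim gene cannot be told from a bright one.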

Other observations

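The clock list, with genes whose transcripts can follow the time of day, leaned higher at 24 h. Whether they do so in the testis was not tested. Of 13 measured, 11 were higher (84.6%, against 49.9% of all genes) and the median was 0.13. Timeless was at 0.57, the repressor gene Bhlhe41 at 0.49, and the output transcription factor gene Dbp at 0.40. Both Dbp probe sets read 0.40, but they come from 1 sequence. Nr1d1 was at 0.27 and Per2 at 0.12, while Bmal1, the activator of the clock, was at -0.22. None passed 2-fold, all but Timeless, Bhlhe41 and Dbp were within the noise of 1 probe set, and the sources used here do not give the hour of collection.

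Cell cycle inhibitors differed among themselves. Cdkn1a (p21) was at 2.05 at 4 h, 2.21 at 8 h and 1.45 at 24 h, with both probe sets lower (-0.62 and -0.61), and Cdkn1b (p27) was at -0.59, while Cdkn1c (p57) was at 0.42. The mitotic kinase gene Aurkb was at 0.48, and the 41 cell cycle genes had a median of 0.00. The estrogen receptor gene Esr1 was at 1.26 at 4 h, 1.99 at 8 h and 3.16 at 24 h, a difference of 0.67 from 1 probe set, and Hsd11b2, which inactivates glucocorticoids, was at -0.86. The 14 glucocorticoid target genes had a median of -0.02 and the 37 immediate early genes of -0.01.

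Matrix genes were at a median of 0.09 over 59 genes, 36 of them higher (61.0%, against 49.9% of all genes), and none passed 2-fold. Among them the bone sialoprotein gene Ibsp was at -0.90, the proteoglycan genes Sdc3 and Spock2 at -0.65 and -0.63, and Vcan at 0.58. Mast cell genes went both ways over 11 genes (median 0.07), with the protease gene Mcpt9 2.10-fold lower (0.881 to 0.420), Fcer1a of the IgE receptor at 0.84 (probe sets 0.14 and 1.54) and the carboxypeptidase gene Cpa3 at 0.63. Glycolysis genes were lower in 17 of 26 cases (65.4%, against 49.8% of all genes) with a median of -0.06. Of 6 epididymis genes 5 were lower (83.3%, against the same 49.8%), and their median was -0.20.

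Outside the genes described, 1734 probe sets carry several symbols or none. At 24 h 29 of them passed 2-fold upward and 24 downward, together 3.06%, against 1.76% of the probe sets with 1 symbol.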
